A study of Mus musculus with 4 samples.

Results

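The binding sites described here are the SCL chromatin immunoprecipitation sequencing (ChIP-seq) peaks nearest to the genes of the ephrin, semaphorin and Slit guidance systems. A peak was counted when the protein-coding transcription start site (TSS) nearest to its summit belonged to an Eph, ephrin (Efn), semaphorin (Sema), plexin (Plxn), neuropilin (Nrp), Robo or Slit gene. There were 115 such peaks among the 12885 of the whole list, and they fell to 38 of the 60 genes of these families. The families were named by gene symbol, and among the called peaks the rule used no value of fold. The study counts fewer bound loci than the deposited list contains. Its methods name a genome viewer with which peaks were filtered and identified, and how its number was reached beyond that is not known here. Every share below therefore refers to the list as deposited.

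SCL, the product of the Tal1 gene, belongs to the basic helix-loop-helix family of transcription factors and is needed for the first blood cells. The study asked where SCL binds as mesoderm turns to blood, and used wild-type ES cells that were differentiated into embryoid bodies. The study's methods name the wild-type line as J1, and the sample labels give the strain as C57Bl/6 X Sv129. FLK1+ mesoderm was taken from these at day 3.5, FLK1 being a VEGF receptor carried by the shared precursors of blood and endothelium. There were 2 libraries made with an in-house SCL rabbit antiserum and 2 input libraries made with no antibody, all from the same kind of cells. The deposited list merges the libraries of each kind, so it has no value for any 1 library, no error between differentiations and no expression level against which the FLK1+ label could be set.

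The families form pairs of signals and receptors. Ephrins are membrane-bound ligands of the Eph receptor tyrosine kinases, and contact between cells that carry them usually leads to repulsion or sorting. Semaphorins, secreted or membrane-bound, act through plexins, with neuropilins as co-receptors for most of the secreted class, and Slit proteins are secreted ligands of the Robo receptors. These systems were first described in the steering of axons. In the early vasculature ephrin-B2 marks arteries and its receptor EphB4 marks veins, while Sema3e with plexin-D1, and the neuropilins as VEGF co-receptors, shape vessel growth.

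SCL binds DNA with an E protein at an E-box (CANNTG), and together with GATA factors, LMO2 and LDB1 at a composite of a shortened E-box and a GATA site. The composite was searched here as CTG, 7 to 9 bases of any kind, then GATA, on either strand. The sequences below centre on the summits that carry the account: the strongest peak of each family other than the semaphorins, and the other peaks among the 15 strongest that lie on a composite. They are from the plus strand of the mm9 reference, 101 bases each, or 201 bases where the nearest composite lay between 50 and 100 bp from the summit. Capitals mark the CTG and the GATA of the composite, which read as CAG and TATC on the opposite strand.
The strongest peak of all 115 lay in an intron of Slit1.
Slit1 (chr19:41752178-41752378): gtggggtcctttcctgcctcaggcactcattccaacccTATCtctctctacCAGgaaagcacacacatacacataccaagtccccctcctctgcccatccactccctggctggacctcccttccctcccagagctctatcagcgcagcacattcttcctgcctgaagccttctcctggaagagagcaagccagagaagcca
Peaks downstream of Efnb2 follow in order of strength.
Efnb2 (chr8:8488672-8488872): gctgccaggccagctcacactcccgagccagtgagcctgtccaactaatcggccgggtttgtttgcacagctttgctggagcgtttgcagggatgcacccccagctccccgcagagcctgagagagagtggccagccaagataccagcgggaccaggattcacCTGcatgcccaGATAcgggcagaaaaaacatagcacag
Efnb2 (chr8:8516587-8516687): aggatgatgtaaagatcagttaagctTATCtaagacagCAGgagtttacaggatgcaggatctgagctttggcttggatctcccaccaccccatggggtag
Efnb2 (chr8:8482331-8482431): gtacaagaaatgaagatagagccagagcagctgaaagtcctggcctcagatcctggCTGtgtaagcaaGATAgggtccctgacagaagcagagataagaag
Efnb2 (chr8:8498889-8498989): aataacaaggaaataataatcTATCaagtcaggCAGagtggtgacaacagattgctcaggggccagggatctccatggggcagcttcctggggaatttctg
Plexin and neuropilin genes gave these.
Plxnc1 (chr10:94394702-94394802): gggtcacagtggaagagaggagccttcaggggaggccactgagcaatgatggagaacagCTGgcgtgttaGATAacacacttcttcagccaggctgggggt
Plxna4 (chr6:32484112-32484212): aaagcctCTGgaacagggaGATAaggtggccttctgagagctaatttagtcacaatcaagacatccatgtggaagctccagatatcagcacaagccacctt
Plxna4 (chr6:32520652-32520752): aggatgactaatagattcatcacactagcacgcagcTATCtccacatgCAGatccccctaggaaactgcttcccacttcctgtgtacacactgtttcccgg
Plxna2 (chr1:196588156-196588256): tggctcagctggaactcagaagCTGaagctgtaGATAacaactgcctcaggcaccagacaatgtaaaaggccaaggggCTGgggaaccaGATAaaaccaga
Nrp2 (chr1:62228331-62228431): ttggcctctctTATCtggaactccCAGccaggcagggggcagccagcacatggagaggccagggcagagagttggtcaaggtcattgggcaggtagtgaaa
The strongest Eph and Robo peaks had no composite within 100 bp, and capitals there mark each E-box and each longer GATA site instead, the latter with A or T before GATA and A or G after it.
Epha4 (chr1:76673603-76673703): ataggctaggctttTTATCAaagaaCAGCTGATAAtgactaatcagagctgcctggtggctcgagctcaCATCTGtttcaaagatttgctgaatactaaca
Robo1 (chr16:72580148-72580248): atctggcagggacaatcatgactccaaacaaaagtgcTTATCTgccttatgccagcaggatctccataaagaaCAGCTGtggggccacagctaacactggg

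The composite spacing differed among these windows by a single base. The Slit1, Nrp2 and first Plxna4 windows, and that of the Efnb2 peak with a fold of 50.7, had 9 bases between CTG and GATA. The Plxnc1, Plxna2 and second Plxna4 windows, and the 3 other Efnb2 windows, had 8. The Plxna2 window held the composite at 2 places, 21 bp to the left and 35 bp to the right of the summit. At the Epha4 summit an E-box of the form CAGCTG ran into a GATA site, so that the bases overlap. The composite of the Slit1 peak was centred 54.5 bp from its summit and that of the strongest Efnb2 peak 70 bp from it, both outside the 50 bp within which motifs are counted below.

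SCL peaks were found at guidance genes of all 7 families. The share of genes with a peak was 63.3% (Wilson 95% confidence interval 50.7% to 74.4%) in the 60 guidance genes, and 29.2% in all 22219 protein-coding genes. Having 5 or more peaks was seen for 9 of the 60 genes, which together held 65 of the 115 peaks, against 2.09% of all protein-coding genes. Guidance genes also lie in long stretches of DNA. The sequence that is nearer to a TSS of the gene than to that of any other protein-coding gene, called its territory here, had a median of 103 kb for guidance genes and 46.3 kb for all genes. Per length, the guidance genes had 4.40 peaks per Mb of territory (Poisson 95% interval 3.63 to 5.28, counting error only), against 5.04 over all protein-coding genes. The number of peaks went with territory, with a Spearman rank correlation of 0.577 over the 60 genes and 0.438 over all 22219, across genes, which are not independent replicates.

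**Figure D1:**
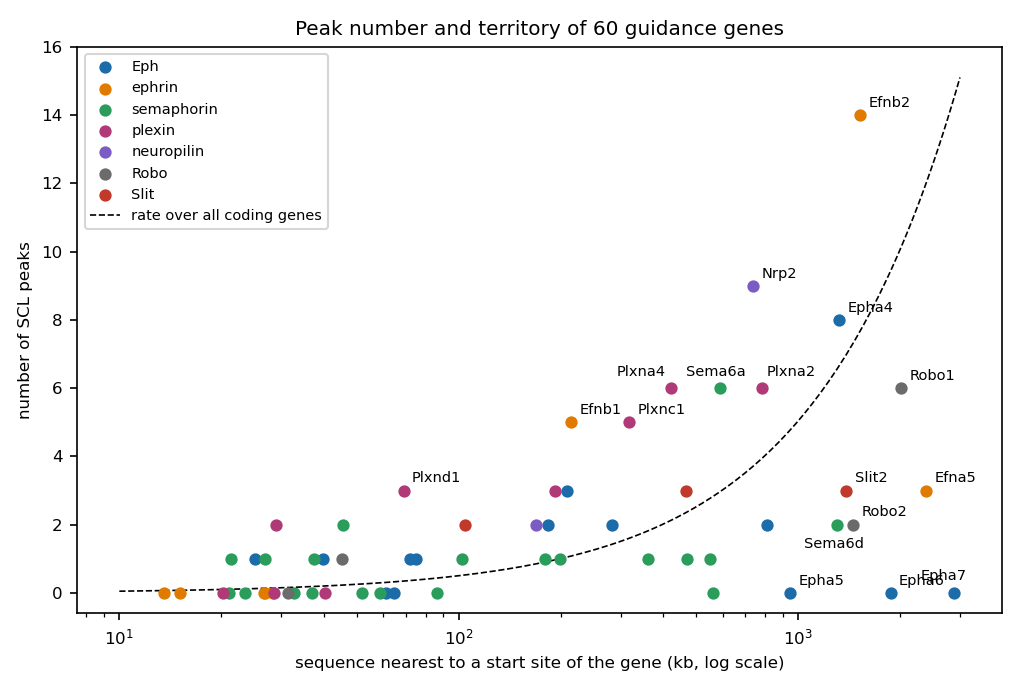
Number of SCL peaks (vertical axis) against the length of sequence nearest to a TSS of the gene (horizontal axis, kb, log scale) for the 60 guidance genes, coloured by family. The dashed curve is the 5.04 peaks per Mb of all protein-coding genes, and Efnb2, Nrp2, Plxna4 and Efnb1 lie above it, while Robo1, Efna5, Epha6 and Epha7 lie below it.

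Strength was near that of the whole list. Fold enrichment, the authors' ratio of ChIP fragments at the summit to the local background with 1 added to each, had a median of 10.5 (95% interval of the median 9.41 to 12.4) over the 115 peaks and ranged from 4.69 to 129.6. The median over all peaks was 11.1. A fold of 20 or more was reached by 28 guidance peaks, or 24.3% (17.4% to 32.9%), spread over 15 genes, against a background of 25.1% of all peaks. Among the 1000 strongest peaks of the list were 9 guidance peaks, 7.83% of the 115, where 7.76% of all peaks are in that number. A median guidance peak rested on 52 fragments, with a Poisson 95% interval of 38.8 to 68.2, over a background of 3.81 fragments, and the highest background among them was 9.96. Over the 15 strongest, the count at the summit was 136 to 754 fragments and the background 2.60 to 7.78. Intervals given with single folds below come from the fragment count and cover counting error only.

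**Figure D2:**
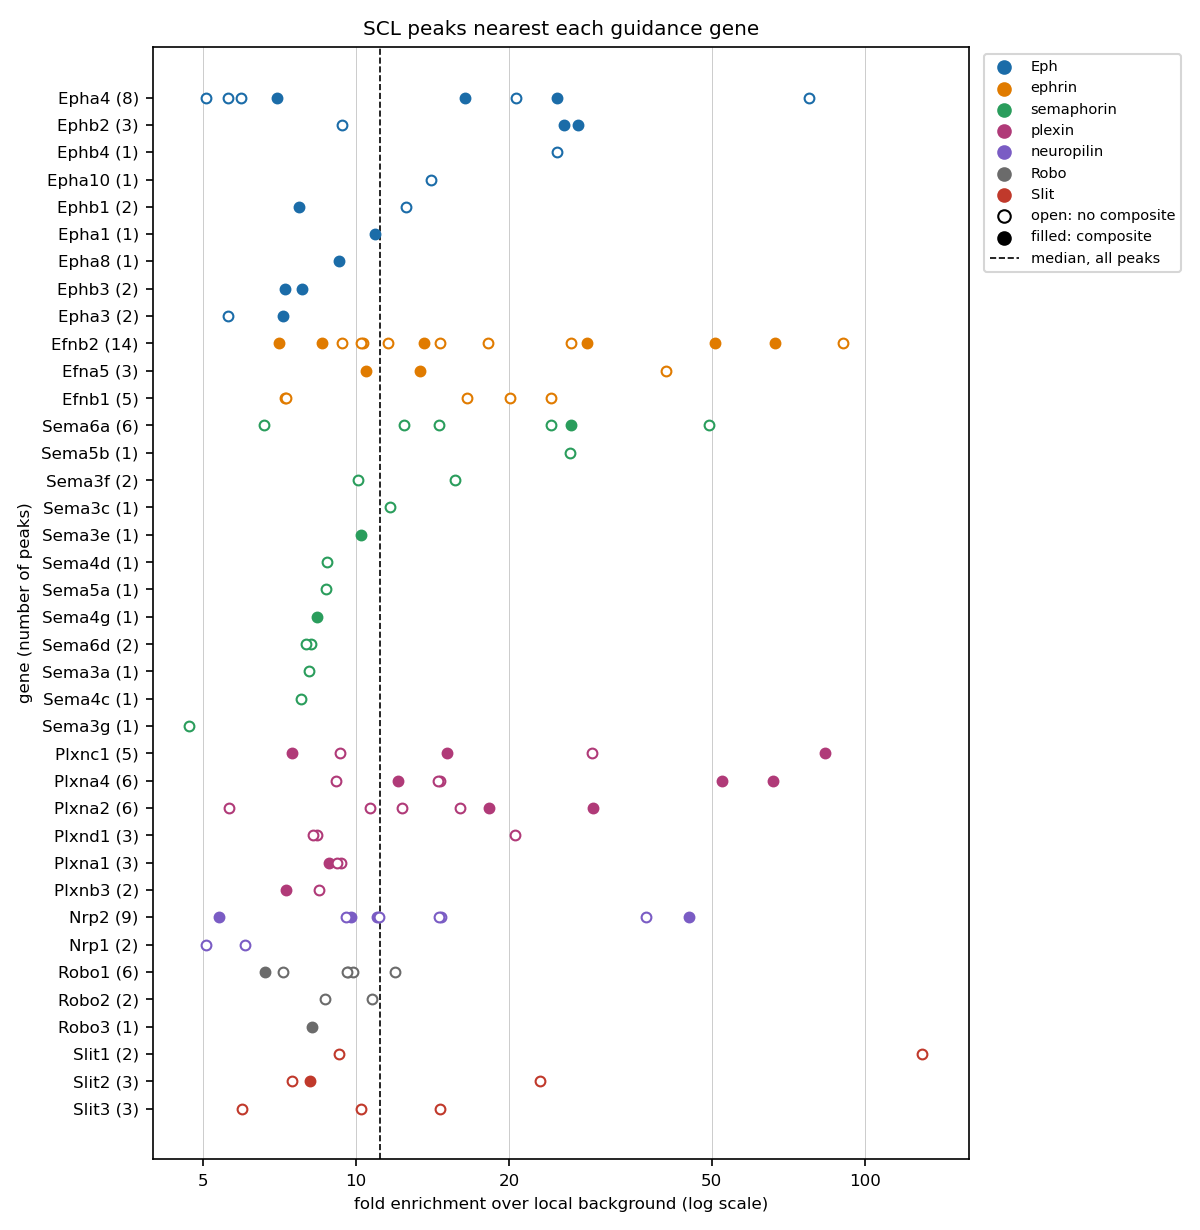
Fold enrichment (log scale) of each of the 115 SCL peaks by gene, with the number of peaks in brackets, coloured by family and filled where a CTG-GATA composite lay within 50 bp of the summit. The dashed line is the median of all peaks, 11.1, and the points reach from 4.69 at Sema3g to 129.6 at Slit1.

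Ephrin ligands held 22 peaks, 14 of them at a single gene. Efnb2 encodes ephrin-B2, the arterial member of the family, and had the most peaks of any guidance gene when peaks at any distance went to the nearest TSS. Within 100 kb of the TSS it had 4, as did Efnb1, Sema6a and Plxnc1, and within the gene or 10 kb of it Efnb2 had 1, Plxna2 6 and Plxna4 8. Its folds ran from 7.05 to 90.6 with a median of 14.1, and 5 of the 14 reached 20. All 14 summits lay downstream of the nearest Efnb2 TSS, from 15.7 to 529.2 kb away. In all, 13 were intergenic and 1 was in an Efnb2 intron.

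The strong Efnb2 peaks sat together. A chain of 6 summits, each within 20 kb of the next, spanned 36.9 kb and began 120.1 kb from the TSS. The strongest had a fold of 90.6 (84.2 to 97.3), from 754 fragments on a background of 7.34, at chr8:8488374-8489624. With a width of 1251 bp it was the broadest guidance peak, and no GATA site or E-box lay within 50 bp of its summit. A second peak of the chain had a fold of 66.5 (61.3 to 72.2), from 583 fragments, at chr8:8516413-8516927. The third, at chr8:8482101-8482577, had a fold of 50.7 (45.1 to 56.9) and 289 fragments. The fourth, at chr8:8498786-8499171, had a fold of 28.5 (23.9 to 33.6) and 136 fragments. The other 2 had folds of 26.5 and 8.57. Of these 6 summits 4 lay on a composite, and 5 of the 6 peaks had a fold of 20 or more.

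Away from that chain the Efnb2 peaks were weaker. A second chain of 4, between 15.7 and 55.9 kb from the TSS, had folds of 10.3 to 18.2 and included the intronic peak, at 14.6. A pair more than 500 kb away had folds of 10.2 and 11.5. The last 2 stood alone at 257.4 and 460.7 kb, with folds of 7.05 and 9.41. Efnb2 took 22.7% of the 10996 fragments summed over the summits of all 115 peaks.

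The assignment of these peaks to Efnb2 rests on its TSS being slightly nearer than that of 1 other gene. For all 14, the next TSS was that of 4921522P10Rik, which lies 562 bp beyond the annotated 5′ end of Efnb2. An Efnb2 transcript that starts inside the gene makes the margin 22438 bp.

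The other ephrins differed widely. Efnb1, which encodes ephrin-B1, had 5 intergenic peaks downstream of its TSS, of which 4 lay within 4.39 kb of each other near 60.5 kb. Their folds were 24.1, 20.05, 7.28 and 7.24, and another peak at 149.6 kb had 16.5. Efna5, a lipid-anchored ephrin of the A class, had 3 peaks in a territory of 2382 kb. Its strongest, with a fold of 40.6 (35.4 to 46.5), lay 1342 kb downstream of the TSS at chr17:61613762-61614214, the most remote of all guidance peaks. The others had 13.4, in an Efna5 intron, and 10.5, in an intron of Fbxl17. Efna1, Efna2, Efna3, Efna4 and Efnb3 had none, and each has a territory of under 30 kb, from 13.5 kb for Efna4 to 28.4 kb for Efna3.

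**Figure D3:**
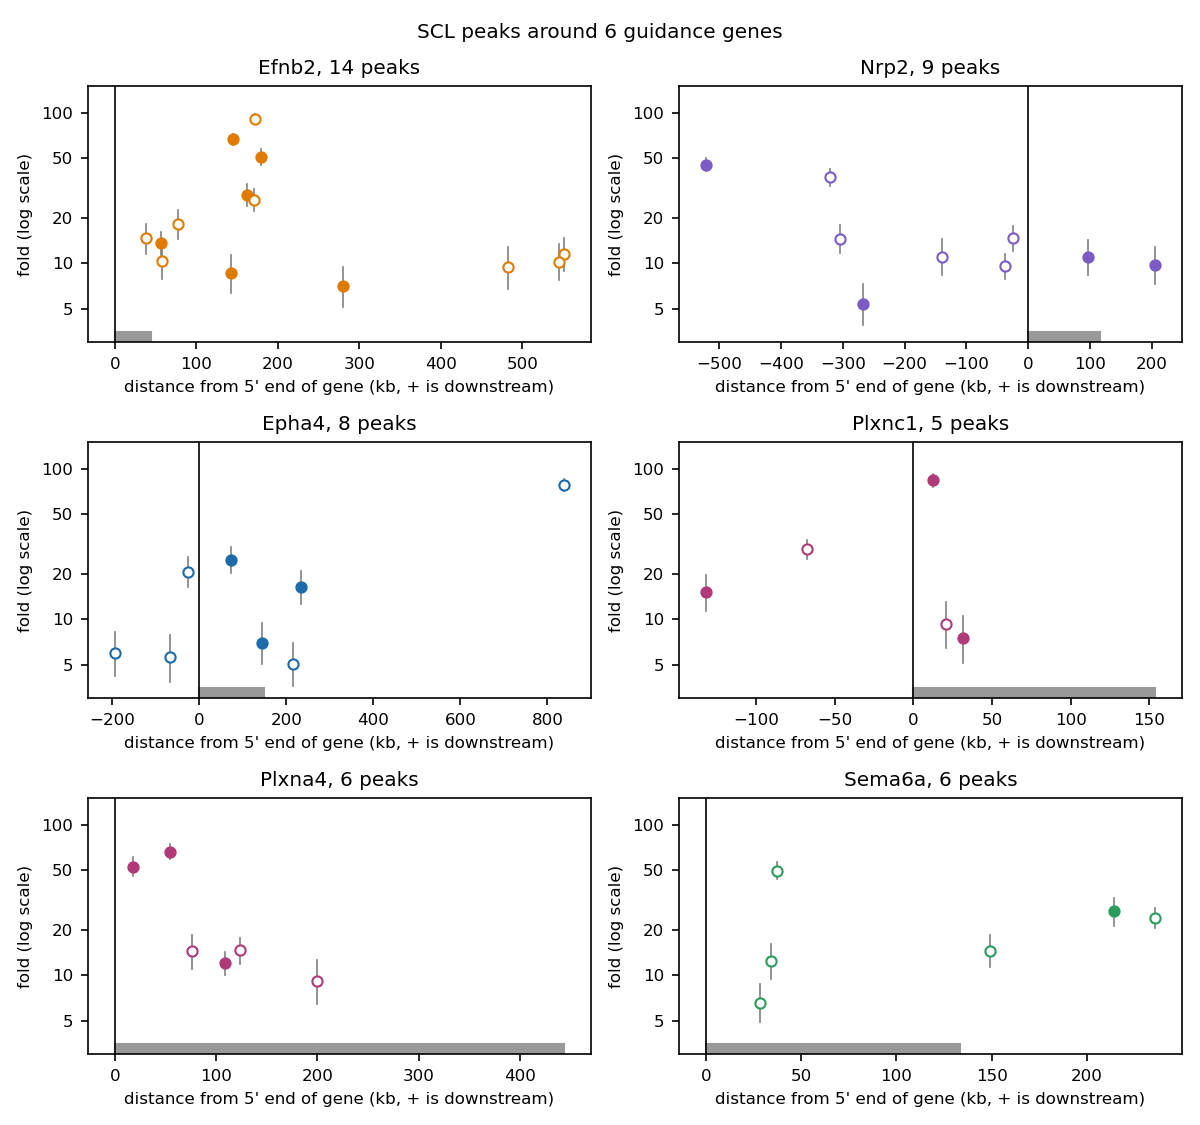
Fold enrichment (log scale) with counting intervals of each SCL peak of 6 guidance genes against distance from the annotated 5′ end of the gene (kb, positive downstream), the grey bar being the gene and filled points having a composite within 50 bp. Every Efnb2 peak but 1 lies beyond the gene, and every Plxna4 peak lies inside it.

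Semaphorins, the largest family with 20 genes, held 19 peaks at 12 genes, with a median fold of 10.1. Sema6a, a transmembrane semaphorin that binds class A plexins, had 6 of them. The folds of its 3 peaks in its own introns were 49.5 (43.3 to 56.5), 12.4 and 6.59, within 9.14 kb of each other and 1.44 to 7.13 kb from a TSS. The first of these rested on 223 fragments and lay at 47490746 to 47491283 of chromosome 18, with a GATA site within 50 bp of its summit. The other 3, with folds of 26.5, 24.1 and 14.6, lay in introns of the neighbouring gene Commd10, 61.6 to 148.0 kb from the Sema6a TSS. The Sema6a summits are not shown as sequence.

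Other semaphorin genes had 1 or 2 peaks each. Sema5b had an intergenic peak with a fold of 26.4 (22.2 to 31.2), 16.4 kb from a TSS. Sema3f, a secreted ligand of neuropilin-2, had upstream peaks of 15.6 and 10.1 that lay 13.0 and 18.5 kb from its TSS. No other semaphorin peak exceeded a fold of 12. Sema3c, needed for the outflow tract of the heart, had an intronic peak of 11.6 at 106.1 kb. Sema3e, the ligand of plexin-D1, had an upstream peak of 10.2 on a composite. Folds between 7.81 and 8.78 were seen at Sema3a, Sema4c, Sema4d, Sema4g, Sema5a and Sema6d, the last with 2 peaks. Sema3g, 183 bp from its TSS, had the lowest fold of all, 4.69 (3.42 to 6.28).

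The 3 Slit genes each had peaks, 8 in all, and their strengths were far apart. The Slit1 intron held the strongest guidance peak, with a fold of 129.6 (119.2 to 140.7) from 566 fragments on a background of 3.37, at chr19:41752032-41752585, and it ranked 103rd in the whole list. It lay 65.7 kb from the nearest Slit1 TSS, and a second Slit1 intronic peak, 17.0 kb away from it, had a fold of 9.27. Slit2, the member best known for acting on vessels, had 3 peaks, all upstream, at 113.3, 210.0 and 708.7 kb, with folds of 7.48, 23.0 and 8.14. Slit3 had folds of 14.7 upstream and of 10.3 and 5.97 in its introns.

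Eph receptor genes held 21 peaks at 9 of 14 genes, with a median fold of 9.41. Epha4, a receptor of both ephrin classes, had 8. The highest reached 77.7 (70.6 to 85.2), from 443 fragments, at chr1:76673415-76673837, in intergenic sequence 838.0 kb downstream of the TSS and 1127241 bp from the next TSS, that of Slc4a3. The remaining Epha4 peaks lay within 233.1 kb of the TSS. Among them were folds of 24.8 in an Epha4 intron, 20.6 upstream and 16.4 downstream, and 4 folds under 7. The strongest Epha4 peak was also the most distant from the gene.

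Peaks of the Ephb genes, which encode receptors for the ephrin-B ligands, all lay within 106.0 kb of their TSS. Ephb4, the venous receptor of ephrin-B2, had a single peak, 1296 bp upstream of its TSS at chr5:137789831-137790280. The fold was 24.8 (20.9 to 29.3) from 141 fragments, with no GATA site or E-box within 50 bp of the summit. Ephb2 had peaks of 27.4 and 25.7 inside the gene, both on a composite, and 1 of 9.41 at 127 bp from a TSS. The Ephb1 peaks had folds of 12.5 and 7.73, and the Ephb3 peaks 7.82 and 7.24. Single peaks were found at Epha10, with a fold of 14.1, at Epha1, with 10.9 at 2872 bp upstream, and at Epha8, with 9.24. Epha3 had 7.18 and 5.61.

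Plexin and neuropilin genes had the most peaks per length. The 25 plexin peaks in 1.90 Mb of territory came to 13.1 per Mb (8.51 to 19.4), and the 11 neuropilin peaks to 12.1 per Mb (6.05 to 21.7). Eph genes had 2.37 (1.47 to 3.63) and Robo genes 2.54 (1.16 to 4.82). Between them were ephrin genes with 5.20 (3.26 to 7.88), Slit genes with 4.08 (1.76 to 8.04) and semaphorin genes with 3.99 (2.40 to 6.23). The intervals of these last families overlap that of the neuropilins. All these intervals cover counting error only and treat peaks as independent. Peaks of 1 gene are not independent, and Nrp2 held 9 of the 11 neuropilin peaks, so differences between families were not tested. Plxnc1, the receptor of Sema7a, had an intronic peak of 83.4 (75.1 to 92.4), from 364 fragments, at chr10:94394551-94395286, 12.5 kb from the TSS and on a composite. Upstream, a peak at chr10:94474596-94475235 had a fold of 29.1 (25.2 to 33.5) and another 15.1, and 2 further intronic peaks had 9.31 and 7.48. All 6 Plxna4 peaks lay in Plxna4 introns, the strongest being 66.0 (58.8 to 73.8) at chr6:32483877-32484734 and 52.5 (45.3 to 60.6) at chr6:32520514-32520877. These were also the 2 nearest to the TSS, at 54.0 and 17.5 kb, and both lay on a composite. The other 4 had folds of 9.15 to 14.6.

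Plxna2 had 6 peaks from 422.1 kb upstream to 143.3 kb downstream of its TSS. The highest fold was 29.3 (25.1 to 34.0) at chr1:196588067-196588553, in an intron, on the window with the composite at 2 places. Folds of the others were between 5.63 and 18.3. Plxnd1, the endothelial plexin, had an intronic peak of 20.6 (17.8 to 23.7) at 1118 bp from a TSS, and upstream peaks of 8.40 and 8.23. The 3 peaks of Plxna1 and the 2 of Plxnb3 had folds under 10.

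Both neuropilin genes were bound, unequally when peaks at any distance went to the nearest TSS. Nrp2, which serves VEGF-C and class 3 semaphorins, had 9 peaks, 7 of them upstream. The strongest, with a fold of 45.1 (40.7 to 49.9), lay 521.5 kb upstream at chr1:62228198-62228574, on a composite in an intron of Pard3b. The next TSS, that of Pard3b, was 542564 bp away from it. Pard3b introns held 5 of the 9, including the second, with 37.2 (32.6 to 42.3) at chr1:62429355-62429704. The 7 others had folds from 5.38 to 14.7. Nrp1, the co-receptor of Sema3a and VEGF-A, had 2 intronic peaks, with folds of 6.07 and 5.08. Counted inside the gene or within 10 kb of it, Nrp2 had 1 peak and Nrp1 had 2.

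No Robo peak exceeded a fold of 12. Of the 9, the strongest was at Robo1 with a fold of 11.9 (8.61 to 16.2) from 40 fragments, at chr16:72580042-72580345, 83.2 kb upstream of the TSS. The other 5 Robo1 peaks had 6.64 to 9.85, 3 of them 559.9 to 842.8 kb downstream of the nearest TSS, and 1 lay 122 bp from it. Robo2 had folds of 10.8 and 8.69. Robo3 had 8.18 at 852 bp upstream of its TSS, on a composite. Robo4, the endothelial member, had no peak nearest to it.

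Of the 60 genes, 22 had no peak nearest to their TSS. Besides the 5 ephrins and Robo4, these were Epha2, Epha5, Epha6, Epha7, Ephb6, Sema3b, Sema3d, Sema4a, Sema4b, Sema4f, Sema6b, Sema6c, Sema7a, Plxna3, Plxnb1 and Plxnb2. The largest of their territories, 2877 kb around Epha7 and 1873 kb around Epha6, were longer than the 1522 kb of Efnb2. Without regard to the nearest TSS, 4 of these 22 genes had peaks inside the gene or within 10 kb of it. For Epha6 there were 2, both inside the gene, for Sema3b 2, and for Sema4a and Plxnb1 1 each.

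Guidance peaks lay far from start sites. Their median distance to the TSS was 71.0 kb, against 28.4 kb over all peaks, and 43.5% (34.8% to 52.6%) lay more than 100 kb away, against 19.8%. Territories of guidance genes are longer, as given above, and the part of this in the distances was not tested. Within 1 kb of a TSS were 7 peaks, or 6.09% (2.98% to 12.0%), against a background of 6.52%. These 7 were at Robo1, Ephb2, Robo3, Ephb3, Plxnb3, Epha3 and Sema3g, and none had a fold above 10. By annotation, 57 summits were intergenic, 52 intronic and 6 exonic. The gene they were assigned to contained 45 of them, and 13 lay in an intron of another gene, 5 in Pard3b, 3 in Commd10, 2 in Chchd6 and 1 each in Fbxl17, Fam178b and Gm16863.

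The share of guidance peaks with a composite was near that of the whole list. A composite lay within 50 bp of the summit in 41 guidance peaks, or 35.7% (27.5% to 44.7%), at 22 genes, against a background of 32.9%. In windows of the same length 1 kb to either side, 3.04% of guidance windows and 3.07% of all windows held it. The spacing of 9 bases was found in 18.3% and that of 8 bases in 13.9% of guidance peaks, against 18.3% and 12.3% of all. Where present, it was centred a median of 16 bp from the summit. Guidance peaks with the composite had a median fold of 10.48 and those without it 10.50, and over all peaks the medians were 13.3 and 10.3. The interval of the first median, 8.39 to 16.4, covers the 13.3 of all peaks with a composite. A fold of 20 or more was reached by 29.3% (17.6% to 44.5%) of guidance peaks with a composite and 21.6% (13.8% to 32.3%) of those without, against 33.4% and 21.1% over all peaks. A match describes the sequence and is no measure of where SCL touched it.

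GATA sites and E-boxes were also counted separately. A GATA site, here GATA with A or T before it and A or G after it, lay within 50 bp in 68.7% (59.7% to 76.5%) of guidance peaks and in 73.2% of all peaks. An E-box of any CANNTG form, which can overlap the other motifs, did so in 64.3% (55.3% to 72.5%), against 52.6%. The order in the flanks was the reverse, 34.8% for guidance peaks and 42.4% for all. The form CAGCTG was at 13.9% against 14.1%. Peaks of receptor genes had an E-box in 74.2% (62.6% to 83.3%) of 66, and those of ligand genes in 51.0% (37.5% to 64.4%) of 49. For the composite the shares were 42.4% (31.2% to 54.4%) and 26.5% (16.2% to 40.3%). Peaks of 1 gene are not independent of each other, so these differences were not tested. The 14 Efnb2 peaks are part of the ligand share, with an E-box in 5 and a composite in 6.

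**Figure D4:**
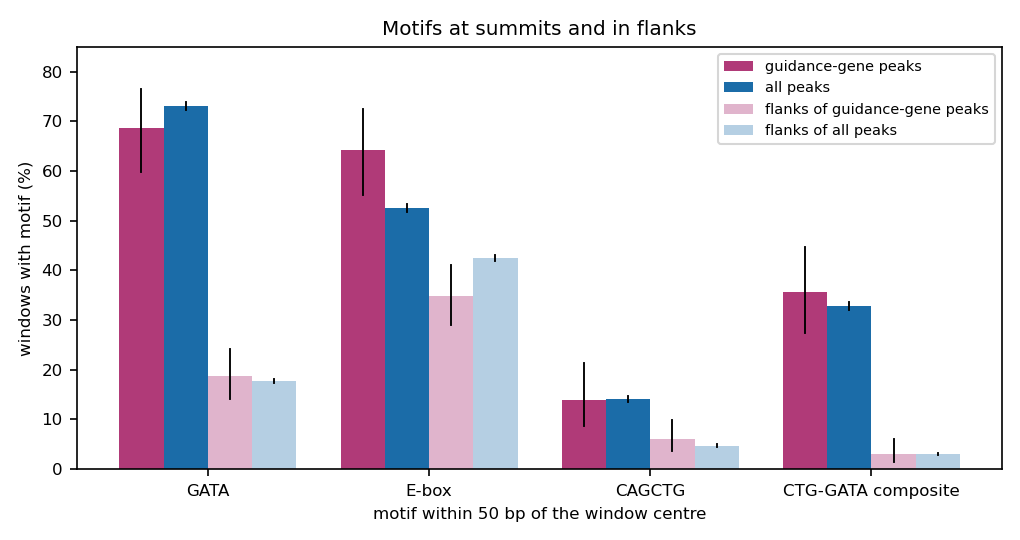
Share of windows (%) that hold each motif within 50 bp of the summit, or of a point 1 kb to either side of it (flanks), for the 115 guidance peaks and all 12885 peaks, with Wilson 95% intervals as lines. GATA sites and composites stand above their flanks in both sets, and guidance peaks hold an E-box in 64.3% of windows against 52.6% of all.

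Some guidance peaks were only just assigned. For 30 of the 115 the TSS of the next gene was less than 1.5 times as far away. Strong peaks were among these 30. The next TSS was 1.29 times as far at the Slit1 peak of 129.6 and 1.15 times at the Efnb2 peak of 90.6. At the Epha4 peak of 77.7 it was 1.35 times as far, and at the Nrp2 peak of 45.1 it was 1.04 times. Other strong peaks were clearly assigned, with 19.5 times at the Plxnc1 peak of 83.4 and 6.63 times at the Plxna4 peak of 66.0. The closest call was the Nrp2 peak 204801 bp from its TSS, with a fold of 9.79, where the TSS of Ino80d was 205752 bp away. Just outside the rule was a peak with a fold of 9.10, at 312672 bp from Gm17350 and 324674 bp from Nrp1. Next were 3 peaks with folds of 7.21 to 13.5, 462219 to 468315 bp from Arglu1 and 491517 to 497613 bp from Efnb2.

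The study names guidance genes among those that SCL activates or represses. It combined RNA levels with these same ChIP libraries, so its lists are not independent of the peaks. Efnb2, Plxnc1 and Sema3f are named there as activated, and Robo1, Slit3 and Epha1 as repressed. In the present list the strongest peaks of Efnb2, Plxnc1 and Sema3f had folds of 90.6, 83.4 and 15.6. Those of Slit3, Robo1 and Epha1 had 14.7, 11.9 and 10.9. The first set held 21 peaks and the second 10, but 14 of the 21 were at Efnb2. Without it the first set held 7, from fewer genes than the second set, so the 7 and the 10 are not compared. Counted inside the genes or within 10 kb of them, the first set had 5 peaks and the second 8. The direction of this count thus rests on how peaks are assigned, and with 3 genes each no test was made.

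Further guidance genes were counted from lists of netrins and their receptors, of repulsive guidance molecules (Rgm) and FLRT proteins, and of intracellular effectors of the receptors. Of these 47 genes, 29 had a peak (61.7%, against the same 29.2% of all protein-coding genes). They had 64 peaks, of which 18 had a fold of 20 or more (28.1%, against 25.1% of all peaks). No density per length of territory is given for these genes, so the part of territory in the 61.7% was not tested. Netrins and their receptors had peaks at 6 of 12 genes, Rgm and FLRT genes at 5 of 5 and effectors at 18 of 30. Rnd2 had the strongest, 97.5, in intergenic sequence 17.5 kb from its TSS. Tiam1, an exchange factor for RAC, had 8 peaks and a highest fold of 79.5 in its own intron. Flrt3, which can bind the netrin receptor UNC5B, had 71.9 at 702.2 kb, in an intron of Macrod2. Unc5d, a netrin receptor, had 59.7 and Flrt2 57.1.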

How the data were processed

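The deposited list was made by the authors from paired-end reads aligned to mm9. The submitters' processing notes name Bowtie 1.1.2 and MACS2 2.0.10, and the irreproducible discovery rate set the final list. Peak names give merged ChIP against merged input. The fold of each peak is a ratio deposited by the authors, as are its −log10 p and −log10 q, and its score, which equalled 10 times −log10 p truncated in 100% of peaks, was not used. The deposited positions were taken as given. Depth per library is not given in the sources used here. Solving the MACS2 equations for fold and p gave the summit's fragment count (pileup) and its background, which matched the −log10 p within 0.001 in 99.9% of peaks.

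TSSs were those of protein-coding transcripts of protein-coding genes in GENCODE vM1 (46006 TSSs, 22232 genes, 22219 on chromosomes with peaks), and sequence was from NCBIM37, the same build as mm9. The names of chromosomes were the same in both, and no peak ran past the end of one. Coordinates count from 1. Motifs were searched on both strands and had to lie wholly within 50 bp of the summit. Python 3.11.15 with numpy 2.4.6, pandas 2.3.3 and scipy 1.17.1 was used, the scripts having been tested on simulated data. Shares have Wilson intervals, and counts exact Poisson intervals.

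Groups came from the sample labels. Since the list has 1 pooled value per peak, no difference was tested. The 15 peaks of highest fold and the strongest of each family were named with fold, interval and position, and some of them with fragment counts. Every gene was named. Members and lists were chosen with earlier results of these data known. Other TSS sets, thresholds on fold and q, distance limits, a background limit and merging of peaks were tried as alternatives.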

Additional observations from a re-analysis of the deposited data

How the results depend on the processing

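No paired analysis was possible because numbered libraries have no values of their own in the merged call, and no library could be left out for that reason. Of 77 values recomputed under alternatives, 61 stayed within the interval of the reported value or, where it had none, moved by less than 1.5 times. Of those, 13 equalled the reported value. At a fold of at least 10, 63 guidance peaks at 24 genes remained in the count, with a median fold of 16.4, 44.4% at a fold of 20 or more and 0% within 1 kb of a TSS. At a −log10 q of at least 50 there were 44 peaks at 18 genes, 8 of them nearest Efnb2, with a median fold of 24.5, 63.6% at a fold of 20 or more and 0% within 1 kb of a TSS. Both thresholds select on strength by construction. A fold of 10 lay between percentiles 43 and 44 of all peaks and between 45 and 46 of guidance peaks. The shares over all peaks above these thresholds were not computed, so the values above are not compared with the whole list. Counting only summits within 100 kb of a TSS gave 65 peaks, 4 of them at Efnb2. Divided by whole territories, their density was 0.615 times that of all protein-coding genes, against 0.873 (0.721 to 1.05) with all distances. Territory beyond 100 kb stayed in this division and guidance territories are longer, which lowers the ratio by construction. It is therefore no density within 100 kb. Counting peaks inside a gene or within 10 kb of it gave 69, with 1 at Efnb2. Other sets of start sites gave 99 to 119 peaks and 14 at Efnb2 in each. Leaving out the Efnb2 peaks, an alternative added after the data were seen, gave a median fold of 10.2. The lowest count at the summit of a guidance peak was 24 fragments, and the effect of depth was not tested.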
